A study of Mus musculus with 36 samples.

Results

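Lung monocytes that carried CD45.2 were compared with those that carried CD45.1, both sorted from chimeric mice after 32-weeks of exposure, across all expressed genes. The 12 libraries used are those of the 4 monocyte groups of 32-weeks, out of 36 libraries of sorted lung cells. They were chosen by their labels, in which the digit 2 or 1 follows the cell name. The study's key for the alveolar macrophage (AΦ) libraries gives 2 as CD45.2 and 1 as CD45.1, and that reading was used for the monocytes. Each origin had 6 libraries, 3 from mice that breathed filtered air (FA) and 3 from mice that breathed concentrated fine particles (PM2.5). The table held 27562 rows, and 12822 genes were tested, those whose FPKM (fragments per kilobase of transcript, scaled to the mapped fragments of the library) averaged 1 or more over the 12 libraries.

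Recipients were C57BL/6J males that carry CD45.2. They were lethally irradiated with a lead block over the chest and were given busulfan. They then received marrow of B6.SJL-Ptprca Pepcb/BoyJ donors, which carry CD45.1, before the exposure to FA or PM2.5. A CD45.2 monocyte was therefore a cell of the irradiated and busulfan treated host, and a CD45.1 monocyte was a cell of the transplanted marrow in that kind of host. The study states that the shield spared the lungs, so that myeloid cells already there stayed CD45.2. It used only chimeras in which nearly all circulating monocytes were of CD45.1 donor origin. GEO's labels give the strain of every sample as C57BL/6 and give no age. Origin, donor or host genome, and history of irradiation and transplantation change together between the groups and cannot be told apart. The study sequenced cells of 3 mice per exposure and time, so both origins of an exposure appear to come from the same mice. Whether a shared replicate number marks a shared mouse is not given in the sources used here.

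CD45, the product of Ptprc, is a phosphatase on the surface of all leukocytes, and its CD45.1 and CD45.2 forms are told apart by antibodies. The donor strain is a congenic one, in which a stretch of chromosome 1 around Ptprc comes from SJL mice on a C57BL/6 background. Lung monocytes enter from blood, where classical monocytes carry Ly6C and CCR2, and some give rise to interstitial macrophages, the macrophages of the lung tissue outside the air spaces. Interstitial macrophages are known by C1q, CD163, LYVE1 and FOLR2, whereas AΦ of the air spaces are known by Siglec-F, MARCO and EAR1.

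The sort took cells that were negative for Ly6G and MHC class II, low for CD64 and high for CD11b. Ly6g was listed at 0 in all 12 libraries. The MHC class II gene H2-Ab1 was nevertheless abundant, with 806, 1484 and 2427 FPKM (lowest, median and highest of 6) in CD45.1 and 1303, 1819 and 1994 FPKM in CD45.2 monocytes. Monocyte genes were present at both origins. Ly6c2 had 148, 262 and 376 FPKM in CD45.1 and 127, 207 and 322 FPKM in CD45.2 monocytes, and Ccr2 had 160, 335 and 842 FPKM against 159, 238 and 938 FPKM. None of the 10 tested genes of the gate list passed the threshold in either direction, where 0.554% of all genes passed. Total Ptprc also did not differ beyond the spread, with 228, 286 and 392 FPKM in CD45.1 and 123, 244 and 377 FPKM in CD45.2 monocytes (adjusted p = 0.798 in limma). A gene-level FPKM does not separate the alleles, so it does not check the labels. Summed FPKM per library ranged from 2521600 to 2937800 in CD45.1 and from 2320600 to 2843900 in CD45.2 libraries (exact permutation p = 0.04, two-sided). The 10 most abundant genes held between 27.6 and 28.3 percent of the sum in CD45.1 and between 27.8 and 33.3 percent in CD45.2 libraries (exact permutation p = 0.015, two-sided). Fewer genes were listed at 0 in CD45.2 libraries, with a median of 10744 against 11512 (exact permutation p = 0.015, two-sided), and more reached 1 FPKM, with a median of 12326 against 11844 (exact permutation p = 0.045, two-sided). The part of these differences in the results below, including the 61 higher against 10 lower calls, was not tested. Read depth is unknown from FPKM.

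Of the 12822 genes, 71 (0.554%) differed between the origins at an adjusted p under 0.05 (limma on log2(FPKM + 1), exposure as a covariate). CD45.2 monocytes had higher levels of 61 genes (0.476%) and lower levels of 10 genes (0.078%). In the group of higher genes were the tissue macrophage genes Cd163, Folr2, Stab1, Lyve1 and Pf4, and the 2 protein-coding genes among the lower ones were Ctse and Chil1. All 71 had the same sign in FA and in PM2.5 exposed mice, and in 63 of the 71 the 6 libraries of one origin did not overlap the 6 of the other. The 71 were called on these same libraries, which favours both counts. Among all genes tested 165 (1.29%) did not overlap. At an unadjusted p under 0.05 there were 1244 genes (9.7%), and the median difference over all genes was -0.0011 on the log2 scale. Of the 71, 59 were protein coding, with 57 among the higher and 2 among the lower genes.

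**Figure D1:**
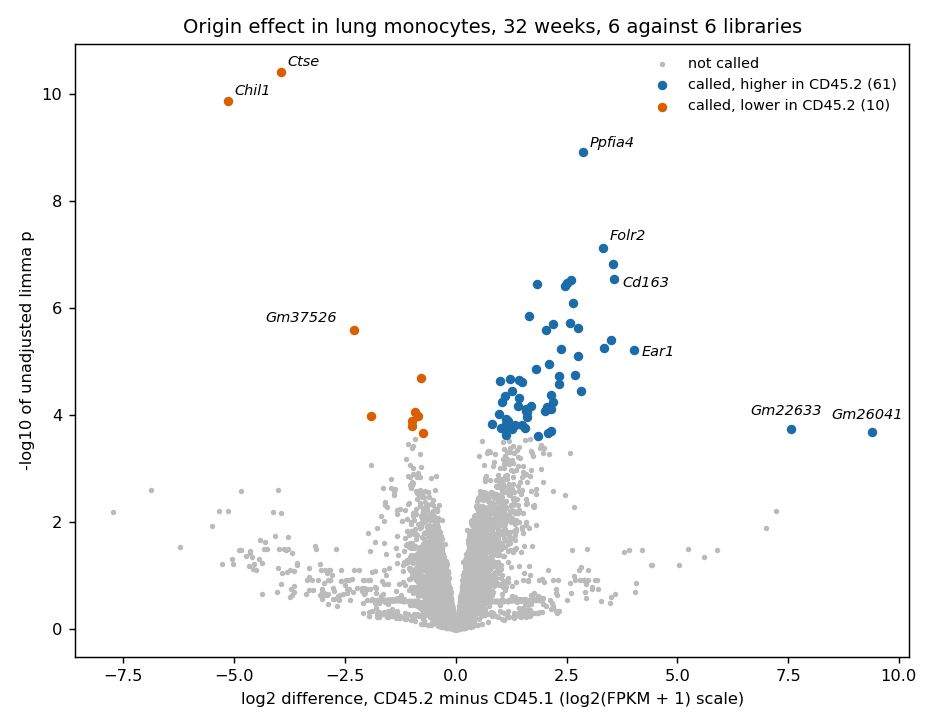
Each point is 1 of 12822 genes, with the log2 difference of CD45.2 minus CD45.1 monocytes on the x axis and -log10 of the unadjusted limma p on the y axis. Blue points are the 61 genes called higher and orange points the 10 called lower in CD45.2 monocytes. Ctse, Chil1 and Ppfia4 stand at the top of the plot.

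The 2 CD45.2 libraries FA replicate 0 and PM2.5 replicate 1 stood apart from the other 4. They held the highest level of 50 of the 60 higher genes that have a symbol of their own in the table, with 24 in the first and 26 in the second. Their scores on the first principal component, which held 14.4% of the variance, were 75.3 and 71.3, whereas the other 10 libraries lay between -45.3 and 30.4. With both left out, 24 genes passed, 21 higher and 3 lower, and all 24 were among the 71. This pair was chosen after its values were seen. Leaving out any single library gave between 37 and 85 genes. The count moved by over 1.5 times without CD45.1 FA replicate 1 (42 genes), CD45.1 FA replicate 2 (41 genes), CD45.1 PM2.5 replicate 0 (37 genes), CD45.1 PM2.5 replicate 2 (38 genes), CD45.2 FA replicate 0 (42 genes) and CD45.2 PM2.5 replicate 1 (42 genes).

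The 3 genes with the smallest p lay on chromosome 1 near Ptprc. Ctse (ENSMUSG00000004552.16, chr1:131638306-131675505 of GRCm38, + strand) encodes cathepsin E, an aspartic protease of endosomes. It had 39.4, 48.9 and 61.5 FPKM in CD45.1 and 1.46, 2.18 and 3.53 FPKM in CD45.2 monocytes, a log2 difference of -3.95 ± 0.16 (SE, adjusted p = 4.89e-07 in limma). Chil1 (ENSMUSG00000064246.10, chr1:134182176-134190181, + strand) encodes a chitinase-like protein without chitinase activity. Its values were 25.1, 43.6 and 63.2 FPKM in CD45.1 and 0, 0.183 and 0.414 FPKM in CD45.2 monocytes, where 2 libraries were listed at 0, and the log2 difference was -5.15 ± 0.23 (SE, adjusted p = 8.45e-07 in limma). Ppfia4 (ENSMUSG00000026458.13, chr1:134296783-134332928, - strand) encodes liprin-alpha 4, a scaffold protein best known from synapses. It went the other way, from 0.042, 0.128 and 0.264 FPKM in CD45.1 to 6.02, 6.64 and 11 FPKM in CD45.2 monocytes, a log2 difference of 2.87 ± 0.16 (SE, adjusted p = 5.13e-06 in limma). For each of the 3 genes every CD45.2 library lay on the same side of every CD45.1 library, and the exact permutation p was 0.005 (two-sided), the smallest that 400 arrangements within exposure can give. The calls of these 3 genes held with any single library left out, with log2 differences between -4.05 and -3.85 for Ctse, between -5.3 and -5.01 for Chil1 and between 2.76 and 2.94 for Ppfia4.

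The RefSeq promoter windows of Chil1 and Ppfia4 are shown because these neighbouring genes moved in opposite directions. Each runs from 250 bases before to 50 bases after the RefSeq start nearest to the 5′ end of the gene model (GRCm38.p6), read 5′ to 3′ on the gene's strand. Chil1 is chr1:134181906-134182205 on the + strand and Ppfia4 is chr1:134332879-134333178 on the - strand. Capitals mark matches on either strand to 4 motifs, the PU.1 core GAGGAA, the C/EBP motif TTGCNNAA, the MAF half-site TGCTGA and the TATA box TATAAA, none of which overlaps another here. Of 32851 promoter windows 28.3% held the PU.1 core, 10.8% the C/EBP motif, 19.5% the MAF half-site and 13.6% the TATA box.
Chil1: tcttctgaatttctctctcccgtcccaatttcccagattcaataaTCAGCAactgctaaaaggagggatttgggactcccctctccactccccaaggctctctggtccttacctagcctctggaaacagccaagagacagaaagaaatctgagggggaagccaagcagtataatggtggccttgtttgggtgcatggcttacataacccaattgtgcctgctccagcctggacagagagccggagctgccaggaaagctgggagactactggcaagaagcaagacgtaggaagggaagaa
Ppfia4: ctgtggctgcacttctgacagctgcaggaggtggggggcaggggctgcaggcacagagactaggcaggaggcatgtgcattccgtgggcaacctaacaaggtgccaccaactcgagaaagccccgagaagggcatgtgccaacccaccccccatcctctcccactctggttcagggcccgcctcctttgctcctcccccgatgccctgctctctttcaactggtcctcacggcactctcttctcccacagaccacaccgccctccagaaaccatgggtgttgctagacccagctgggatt
The Chil1 window held 1 MAF half-site and the Ppfia4 window held no match to these letters.

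Within 20 Mb of Ptprc on chromosome 1, 194 genes were tested and 7 (3.61%) passed, against 0.554% of all genes. On the rest of chromosome 1, 3 of 733 genes passed, and among genes on other chromosomes or without a position 61 of 11895. Besides the 3 genes above, Cd55 (complement decay-accelerating factor, 7.67 Mb from Ptprc) and Atp2b4 (a calcium pump of the plasma membrane, 4.37 Mb from Ptprc) rose. Cd55 had 0, 0.272 and 0.967 FPKM in CD45.1 and 1.77, 5.34 and 9.94 FPKM in CD45.2 monocytes (log2 difference 2.14 ± 0.33 SE, adjusted p = 0.0154 in limma). Its call was lost without CD45.1 PM2.5 replicate 0 (adjusted p = 0.051 in limma) and without CD45.2 FA replicate 0 (adjusted p = 0.0514 in limma). Atp2b4 had 2.73, 3.28 and 3.80 FPKM against 5.81, 7.24 and 10.2 FPKM (log2 difference 1 ± 0.15 SE, adjusted p = 0.00987 in limma). The predicted non-coding genes Gm38399 and Gm37333 fell by 0.79 and 0.85 on the log2 scale. Of the 194 genes 90 had a positive and 104 a negative difference, with a median of -0.03, close to the -0.0011 of all genes. Farther along the chromosome, 28.2 Mb from Ptprc, Ildr2 (a membrane protein of the immunoglobulin superfamily) had 0.138, 0.898 and 1.33 FPKM in CD45.1 and 3.83, 6.53 and 9.50 FPKM in CD45.2 monocytes (log2 difference 2.03 ± 0.23 SE, adjusted p = 0.00196 in limma).

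**Figure D2:**
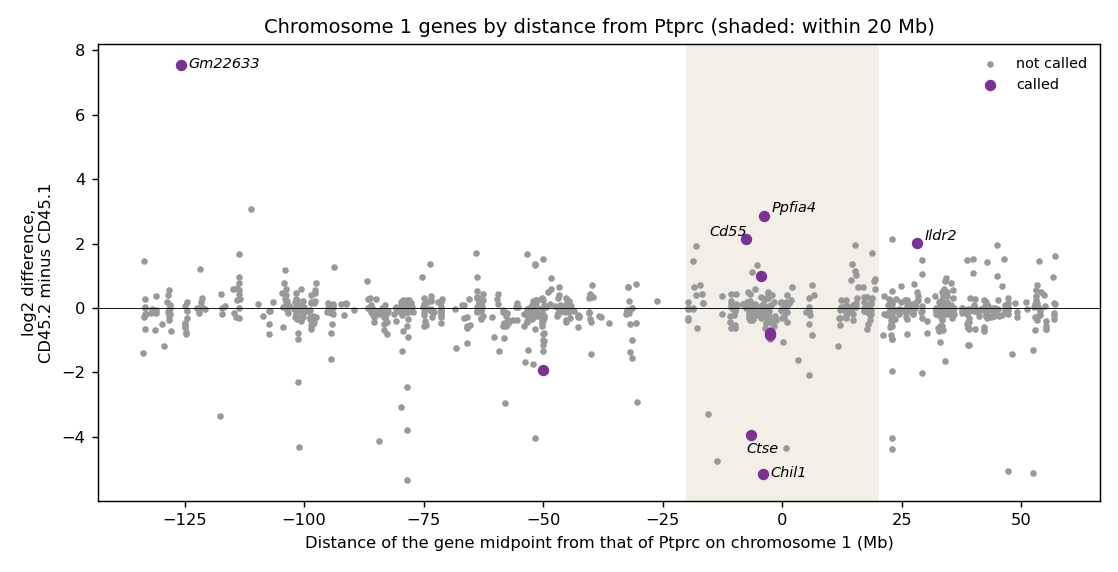
Log2 difference of CD45.2 minus CD45.1 monocytes (y axis) for the genes tested on chromosome 1, by the distance of the gene midpoint from that of Ptprc in Mb (x axis). Purple points are called genes, and 7 of the 10 called lie in the shaded range within 20 Mb, with Chil1 and Ctse lowest among them. The called point at the far left is the small RNA gene Gm22633.

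The same 3 genes were read in the 6 monocyte libraries of 4-weeks, which the study describes as CD45.2 cells and whose labels carry no origin digit. The 3 FA exposed replicates read 54.4, 52.7 and 47.5 FPKM of Ctse, and the 3 PM2.5 exposed replicates read 3.91, 6.51 and 60.6 FPKM. For Chil1 the values were 37.9, 71.6 and 51.9 FPKM after FA, then 2.23, 13.9 and 44.8 FPKM after PM2.5. For Ppfia4 they were 1.81, 1.59 and 0.889 FPKM after FA, then 8.67, 6.8 and 0.711 FPKM after PM2.5. Thus for Ctse 4 of the 6 libraries lay within the range of CD45.1 monocytes of 32-weeks, and PM2.5 replicates 0 and 1 lay just above the range of CD45.2 monocytes. These 2 libraries were also the lowest for Chil1, between the ranges of both origins, and they alone reached the CD45.2 range for Ppfia4. No test was made, since the times differ and this reading was added after the values were seen.

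The AΦ of 32-weeks, sorted by the same origin marker, give a second reading of these genes in other libraries. Ctse had 2.91, 3.94 and 5 FPKM in BM-AΦ (bone marrow-derived, CD45.1) and 0, 0.0722 and 0.545 FPKM in TR-AΦ (tissue-resident, CD45.2), a log2 difference of -2.11 ± 0.16 (SE, adjusted p = 2.46e-07 in limma). Ppfia4 had 0.0199, 0.0525 and 0.0925 FPKM in BM-AΦ and 0.538, 0.836 and 1.09 FPKM in TR-AΦ, a log2 difference of 0.76 ± 0.14 (SE, adjusted p = 0.0106 in limma). Chil1 was low in both AΦ, with 0, 0.539 and 2.23 FPKM in BM-AΦ and 5 of 6 TR-AΦ libraries listed at 0 (adjusted p = 0.607 in limma). Atp2b4 differed in the opposite direction in AΦ, by -0.92 ± 0.22 (SE), without passing the threshold (adjusted p = 0.0635 in limma).

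On other chromosomes, genes known from interstitial macrophages were higher in CD45.2 monocytes. All 14 markers on the list were tested, all 14 had a positive difference with a median of 1.67 on the log2 scale (-0.0011 over all genes), and 5 rose (Folr2, Cd163, Cbr2, Lyve1 and Pf4), against 0.476% of all genes. None fell. The summed level of the 14 genes was 1890, 3059 and 3775 FPKM in CD45.1 and 3444, 4971 and 9625 FPKM in CD45.2 libraries, so the sums overlapped while the 5 called genes did not. In bulk libraries more cells of a type and more RNA of these genes per cell cannot be told apart.

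Cd163 (ENSMUSG00000008845.9, chr6:124304656-124330527, + strand) encodes the scavenger receptor for haemoglobin bound to haptoglobin. It had 2.60, 4.02 and 5.45 FPKM in CD45.1 and 29.3, 56.4 and 130 FPKM in CD45.2 monocytes, a log2 difference of 3.57 ± 0.33 (SE, adjusted p = 0.000489 in limma). Folr2 (ENSMUSG00000032725.10, chr7:101839988-101857194, - strand) encodes folate receptor beta, and it rose from 0, 0.904 and 1.66 FPKM to 10.7, 14.9 and 26.3 FPKM (3.32 ± 0.27 SE, adjusted p = 0.000241 in limma). Lyve1 (ENSMUSG00000030787.4, chr7:110850607-110863239, - strand), a hyaluronan receptor, had 0.731, 1.25 and 3.89 FPKM in CD45.1 and 7.88, 15.4 and 32.7 FPKM in CD45.2 monocytes (2.75 ± 0.36 SE, adjusted p = 0.00465 in limma). No CD45.2 library of these 3 genes came down to the highest CD45.1 library. Cbr2, a carbonyl reductase abundant in lung, rose by 2.76 ± 0.32 (SE) on the log2 scale, from 1.43, 3.80 and 7.11 FPKM to 17.9, 28.4 and 58.4 FPKM. Pf4, the chemokine CXCL4 that platelets also carry, rose by 2.82 ± 0.43 (SE), from 6.55, 19.2 and 31.5 FPKM to 73.0, 108 and 288 FPKM. The calls of all 5 held with any single library left out. Without the 2 CD45.2 libraries that stood apart, Folr2, Cd163 and Cbr2 still passed, while Lyve1 (2.52, adjusted p = 0.0714 in limma) and Pf4 (2.39, adjusted p = 0.0828 in limma) did not.

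The other 9 members had positive differences that did not pass. The C1q subunits were abundant at both origins, with 118, 164 and 418 FPKM of C1qa in CD45.1 and 314, 579 and 1206 FPKM in CD45.2 monocytes. Their log2 differences were 1.6 for C1qa, 1.41 for C1qb and 1.81 for C1qc, with adjusted p of 0.206, 0.236 and 0.163 in limma. Mertk, a receptor for the uptake of apoptotic cells, had 1.35, 4.51 and 11 FPKM against 6.88, 21.6 and 44.2 FPKM.

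**Figure D3:**
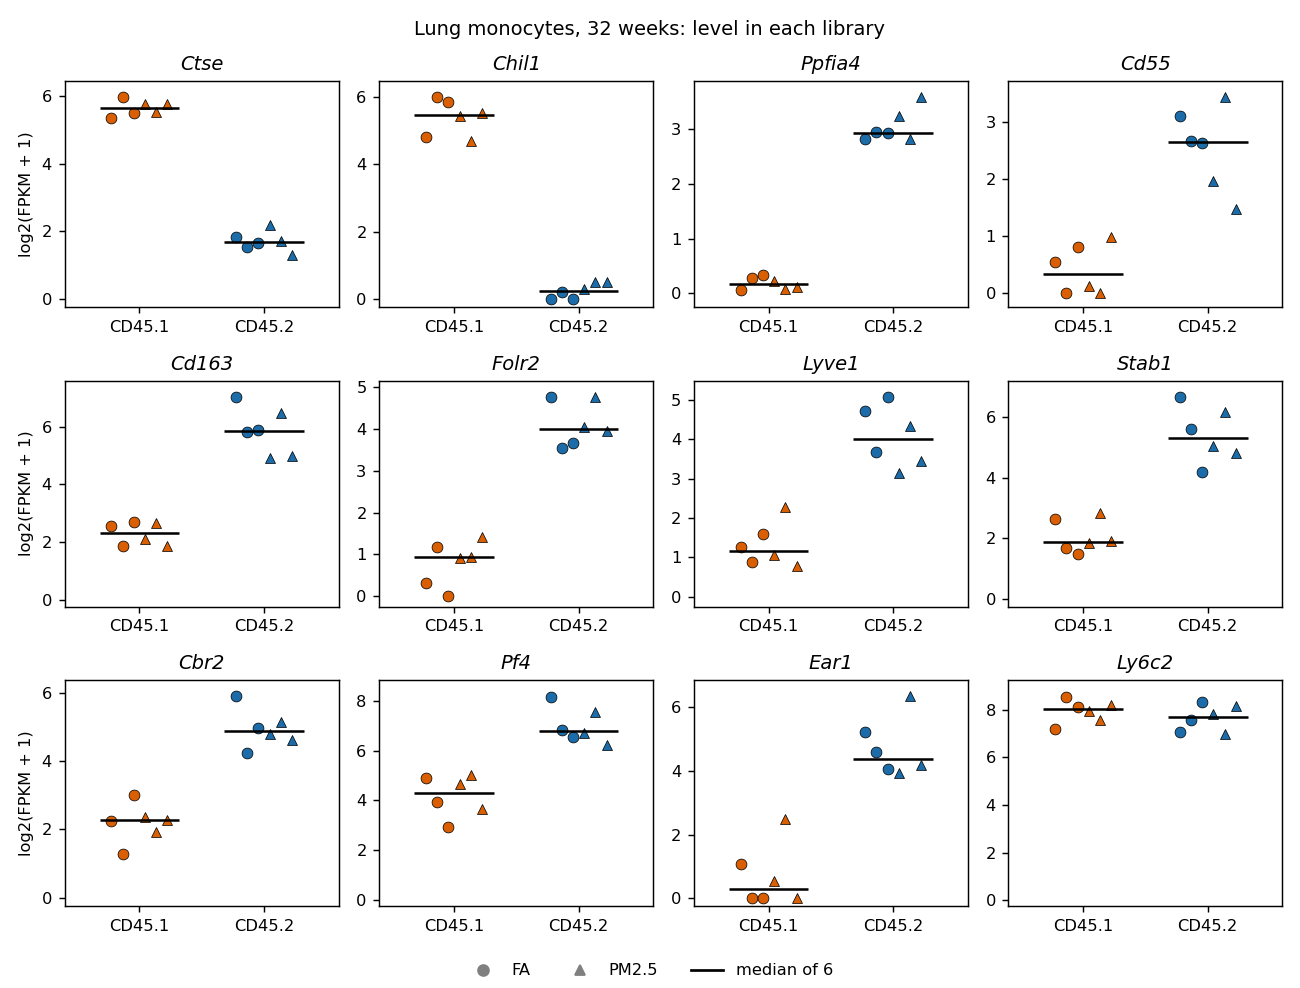
Level of 12 genes in each of the 12 libraries as log2(FPKM + 1), with CD45.1 libraries in orange and CD45.2 libraries in blue, circles for FA, triangles for PM2.5 and a bar at the median of 6. The origins do not overlap in any panel except Ly6c2, where the medians were 262 FPKM in CD45.1 and 207 FPKM in CD45.2 monocytes.

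The promoter windows of Cd163, Folr2, Stab1 and Cbr2 are given because these tissue macrophage genes rose together from 4 chromosomes. The windows are chr6:124304401-124304700 on the + strand for Cd163, chr7:101857141-101857440 on the - strand for Folr2, chr14:31168592-31168891 on the - strand for Stab1 and chr11:120731972-120732271 on the - strand for Cbr2. The build, the reading and the capitals are as for Chil1 and Ppfia4.
Cd163: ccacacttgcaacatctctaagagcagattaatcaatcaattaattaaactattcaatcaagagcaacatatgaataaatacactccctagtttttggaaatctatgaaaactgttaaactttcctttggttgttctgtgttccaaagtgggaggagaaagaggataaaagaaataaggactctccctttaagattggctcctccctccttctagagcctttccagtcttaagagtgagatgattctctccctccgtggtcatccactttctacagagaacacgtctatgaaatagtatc
Folr2: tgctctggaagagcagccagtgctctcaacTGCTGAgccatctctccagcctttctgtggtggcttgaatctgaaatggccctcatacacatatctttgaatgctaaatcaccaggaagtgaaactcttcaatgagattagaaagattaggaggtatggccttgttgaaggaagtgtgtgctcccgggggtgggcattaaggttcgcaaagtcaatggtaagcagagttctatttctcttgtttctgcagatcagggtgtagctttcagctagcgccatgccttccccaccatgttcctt
Stab1: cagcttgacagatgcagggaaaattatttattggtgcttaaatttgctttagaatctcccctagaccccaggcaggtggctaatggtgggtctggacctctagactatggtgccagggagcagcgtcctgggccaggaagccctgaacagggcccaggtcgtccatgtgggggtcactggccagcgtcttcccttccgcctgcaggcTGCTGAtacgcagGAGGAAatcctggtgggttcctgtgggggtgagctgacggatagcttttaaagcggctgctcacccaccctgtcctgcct
Cbr2: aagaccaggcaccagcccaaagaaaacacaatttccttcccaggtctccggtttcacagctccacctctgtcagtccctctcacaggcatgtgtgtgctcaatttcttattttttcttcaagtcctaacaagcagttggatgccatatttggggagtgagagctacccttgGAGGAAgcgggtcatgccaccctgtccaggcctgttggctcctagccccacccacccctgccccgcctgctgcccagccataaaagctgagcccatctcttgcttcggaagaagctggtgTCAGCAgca
The MAF half-site was found 1 time in the windows of Folr2, Stab1 and Cbr2, and the PU.1 core 1 time in those of Stab1 and Cbr2. The Cd163 window held no match to these letters, and none of the 4 windows held the C/EBP motif or the TATA box.

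**Figure D4:**
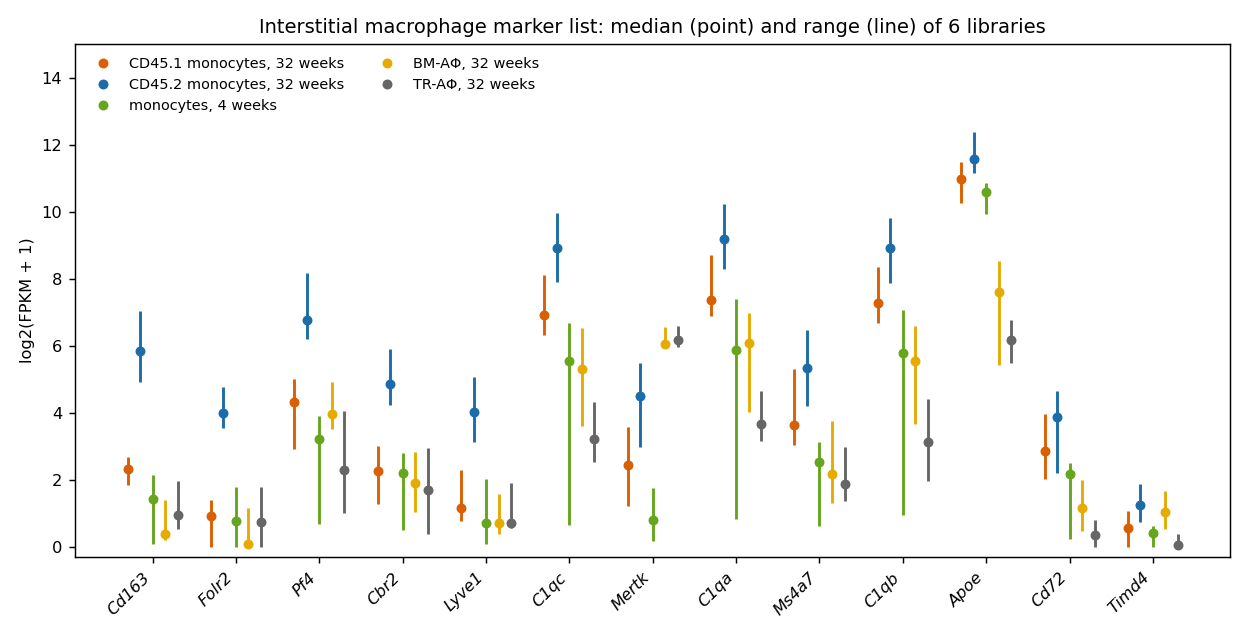
Median (point) and range (line) over 6 libraries of 13 genes of the interstitial macrophage list, as log2(FPKM + 1), in monocytes of both origins at 32-weeks, monocytes of 4-weeks, and BM-AΦ and TR-AΦ of 32-weeks. Genes are ordered by their origin difference in monocytes. Cd163, Folr2, Cbr2, Lyve1 and Pf4 are higher in CD45.2 monocytes of 32-weeks than in any library of the other 4 populations.

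The C1q subunits, higher in CD45.2 monocytes without passing, differed the other way in AΦ. TR-AΦ minus BM-AΦ was -2.07 for C1qa, -2.24 for C1qb and -1.93 for C1qc (adjusted p = 0.0443, 0.0406 and 0.0816 in limma). The levels of Cd163 and Folr2 were low in TR-AΦ. Cd163 had 0.457, 0.947 and 2.92 FPKM in TR-AΦ of 32-weeks, below every CD45.2 monocyte library, and Folr2 had 0, 0.674 and 2.45 FPKM there. In the monocyte libraries of 4-weeks Cd163 had 0.0784, 1.72 and 3.48 FPKM and Lyve1 had 0.0584, 0.651 and 3.13 FPKM. At 4-weeks both genes thus had lower medians than in CD45.1 monocytes of 32-weeks.

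Scavenger and uptake receptors overlap this group. Of 16 listed genes 14 were tested, 13 had a positive difference and the median was 0.62 on the log2 scale. Against 0.476% of all genes, 5 rose, namely Cd163, Colec12, Stab1, Lyve1 and Mrc1. None fell. Stab1 (ENSMUSG00000042286.13, chr14:31139013-31168641, - strand) encodes stabilin-1, which clears modified lipoproteins and matrix fragments. It had 1.83, 2.69 and 6.22 FPKM in CD45.1 and 17.2, 39.9 and 101 FPKM in CD45.2 monocytes (3.34 ± 0.42 SE, adjusted p = 0.0037 in limma). Colec12, a collectin of the cell membrane, rose by 2.2 ± 0.25 (SE) from a median of 0.474 FPKM to one of 5.44 FPKM. Mrc1, the mannose receptor CD206, had 16.1, 18.7 and 38.0 FPKM against 47.8, 69.6 and 126 FPKM (1.71 ± 0.28 SE, adjusted p = 0.0213 in limma). The call of Mrc1 was the weakest of the 5 and was lost in 6 of the 12 fits that left out 1 library, with an adjusted p of up to 0.072 in limma. The class A receptor Msr1 (log2 difference 0.29), Cd36 (0.28) and Scarb1 (-0.39) did not pass.

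Among the 22 chemokine genes tested 17 had a positive difference, with a median of 0.76. Of them 2 rose, Pf4 and Ccl7, against 0.476% of all genes. Ccl7, a ligand of CCR2, had 1.17, 2.31 and 4.67 FPKM in CD45.1 and 6.83, 17.9 and 32.1 FPKM in CD45.2 monocytes (2.33 ± 0.34 SE, adjusted p = 0.0105 in limma). Ccl2, the other main ligand of that receptor, had medians of 26.8 and 43.1 FPKM and did not pass (0.95, adjusted p = 0.538 in limma). Of the 13 complement genes tested 11 had a positive difference, with a median of 0.93. Here 2 rose, Cd55 and C4b, against the same 0.476% of all genes. C4b, a component of the classical pathway, had 0.368, 1.26 and 3.31 FPKM against 4.57, 6.86 and 7.51 FPKM (1.59 ± 0.27 SE, adjusted p = 0.0232 in limma), and its call was lost in 5 of the 12 fits that left out 1 library. The anaphylatoxin receptors C3ar1 (1.58) and C5ar1 (0.93) did not pass, nor did C3 (-0.19).

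Secreted growth and matrix factors were also among the 71 genes. Cyr61, Pla2g2d, Mmp9 and Igfbp4 were named by the rule for single genes, and the others here were chosen after their values were seen. Gas6, the ligand of AXL and MERTK, had 0.863, 1.86 and 2.49 FPKM in CD45.1 and 9.56, 13.9 and 34.8 FPKM in CD45.2 monocytes (2.58 ± 0.29 SE, adjusted p = 0.00179 in limma). Igf1, insulin-like growth factor 1, rose from 1.49, 3.36 and 6.58 FPKM to 9.64, 19.5 and 24.7 FPKM (2.11 ± 0.28 SE, adjusted p = 0.00631 in limma). Cyr61, a matricellular protein, rose from 0, 0.186 and 0.490 FPKM to 3.38, 14.1 and 31.4 FPKM (3.51 ± 0.42 SE, adjusted p = 0.00285 in limma). In all 3 genes the lowest CD45.2 library lay above the highest CD45.1 library. Kitl (stem cell factor, 1.23), Bmp2 (a bone morphogenetic protein, 1.58), its receptor Bmpr1a (1.5) and the growth factor binding protein Igfbp4 (1.55) also rose. The call of Igfbp4 was lost in 9 of the 12 fits that left out 1 library, with an adjusted p of up to 0.108 in limma. Mmp9, a gelatinase, rose by 2.2. Its call was lost in 4 of the 12 fits that left out 1 library, with an adjusted p of up to 0.0676 in limma. Among proteins that carry selenium, Sepp1 rose by 1.13 with medians of 294 and 673 FPKM, and Gpx3 rose by 1.12. Cp, the copper protein ceruloplasmin, rose by 1.84. Of the lipid enzymes, the secreted phospholipase Pla2g2d rose by 2.68, the prostaglandin D synthase Hpgds by 1.61 and the paraoxonase Pon3 by 1.26.

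Surface lectins and receptors were read from the same list, and of them Cd4, Chp2 and Siglech were named by the rule for single genes. Cd209f, a C-type lectin, rose from 0, 0.387 and 0.813 FPKM to 3.22, 6.85 and 10.6 FPKM (2.5 ± 0.24 SE, adjusted p = 0.000489 in limma). Siglech, a sialic acid binding lectin known from plasmacytoid dendritic cells and some macrophages, rose from 0, 0.370 and 1.94 FPKM to 4.65, 7.34 and 9.85 FPKM (2.47 ± 0.24 SE, adjusted p = 0.000489 in limma). Cd4 (ENSMUSG00000023274.14, chr6:124864692-124888221, - strand), the coreceptor of helper T cells that some macrophages also carry, rose from 0.240, 0.402 and 1.49 FPKM to 11.5, 13.6 and 37.6 FPKM (3.55 ± 0.31 SE, adjusted p = 0.000377 in limma). For each of these 3 genes no CD45.1 library reached the lowest CD45.2 library. Fcna (ficolin A, 1.10), Fcrls (an Fc receptor-like protein, 2.07), S1pr1 (a sphingosine phosphate receptor, 1.61) and Lrp6 (a coreceptor for Wnt ligands, 0.82) rose as well. Chp2, a calcineurin-like calcium sensor, rose by 2.59 ± 0.24 (SE) from a median of 0.351 FPKM to one of 8.50 FPKM.

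Most T cell markers were too low to test. Of the 15 only Cd4 and one other passed the filter on low values, Cd3d was listed at 0 in all 12 libraries, and Cd3e was listed at 0 in 5 of 6 CD45.2 libraries with a highest value of 0.710 FPKM. The summed level of the list was 3.96, 7.99 and 20 FPKM in CD45.1 and 14.9, 20.7 and 45.9 FPKM in CD45.2 libraries, with Cd4 included, and the part of T cell RNA in the level of Cd4 was not tested. Of the 7 plasmacytoid dendritic cell markers 2 were tested and Siglech rose. The platelet and red cell list rose in 1 of 7 tested genes, Pf4, while the platelet gene Gp9 was listed at 0 in all 12 libraries. Of the neutrophil markers 10 of 16 were tested, and 3 had a positive and 7 a negative difference, with a median of -0.32. Only Mmp9 was called, and it rose. The share of all genes that rose, beside these lists, was 0.476%. The sums were 121, 190 and 315 FPKM in CD45.1 and 117, 148 and 252 FPKM in CD45.2 libraries.

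AΦ markers were higher in CD45.2 monocytes, at levels far below those of AΦ. Of 15 listed genes 13 were tested, 12 had a positive difference and the median was 1.6 on the log2 scale. Of the 13, 7 did not overlap between the origins (1.09% of all genes were higher without overlap). Ear1, Mrc1 and Krt19 rose, 3 of 13 against 0.476% of all genes. The summed level of the list was 59.6, 143 and 211 FPKM in CD45.1 and 176, 280 and 764 FPKM in CD45.2 libraries. Ear1 (ENSMUSG00000072601.4, chr14:43818765-43875517, - strand), a ribonuclease that AΦ make in large amounts, had 0, 0.237 and 4.67 FPKM in CD45.1 and 14.3, 20.1 and 80.1 FPKM in CD45.2 monocytes (4.03 ± 0.51 SE, adjusted p = 0.00378 in limma). It had 798, 1050 and 1277 FPKM in TR-AΦ and 602, 729 and 1000 FPKM in BM-AΦ of 32-weeks. Ear genes are near-identical copies, so how reads were shared among them is uncertain. Siglecf had 0.282, 0.600 and 0.763 FPKM in CD45.1 and 1.36, 2.19 and 8.99 FPKM in CD45.2 monocytes, against 115, 139 and 157 FPKM in TR-AΦ, and its difference did not pass (1.26, adjusted p = 0.164 in limma). Fabp1, which did not reach the filter, was listed at 0 in all 6 CD45.1 libraries and had 0, 1.20 and 4.57 FPKM in CD45.2 monocytes, against 39.6, 45.6 and 54.8 FPKM in TR-AΦ. Marco, below the filter as well, had at most 0.0878 FPKM in CD45.1 and 0.483, 0.921 and 4.86 FPKM in CD45.2 monocytes. PM2.5 replicate 1, which had the most Ear1, Siglecf, Fabp1 and Marco, was 1 of the 2 CD45.2 libraries that stood apart. The part of AΦ RNA in the other differences was not tested. Krt19 rose by 2.14, and its call was lost in 10 of the 12 fits that left out 1 library.

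In the lists of monocyte programmes no gene passed the threshold in limma. Of all genes 0.554% passed, so lists this short may hold no call at that share. All 15 genes of classical monocytes were tested, with a median difference of -0.28, 10 negative and 5 positive, and none passed at an unadjusted p under 0.05. Fn1, fibronectin, had 326, 396 and 712 FPKM in CD45.1 and 225, 364 and 510 FPKM in CD45.2 monocytes. Of the 21 genes of non-classical monocytes 16 were negative, the median was -0.26, none was called and 3 were under an unadjusted p of 0.05. Dusp16, a phosphatase of MAP kinases, lay between 74.4 and 139 FPKM in CD45.1 and had 40.7, 64.2 and 101 FPKM in CD45.2 monocytes (-0.64 ± 0.25 SE, adjusted p = 0.395 in limma). Treml4, a receptor of patrolling monocytes, had 28.1, 70.8 and 119 FPKM against 9.61, 42.2 and 60.2 FPKM (-0.84 ± 0.35 SE, adjusted p = 0.454 in limma). Both ranges overlapped. Csf1r, the receptor for colony-stimulating factor 1, had medians of 178 and 205 FPKM (adjusted p = 0.649 in limma).

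No member was called of the lists for interferon-induced genes (35 tested, 29 negative, median -0.16), MHC class II presentation (10 tested, median 0.05), MHC class I presentation (19 tested, median -0.07), proliferation (20 tested, median 0.22), immediate early genes (24 tested, median 0.19), NF-kappa B and its inhibitors (15 tested, median 0.07) and cytokines (19 tested, median -0.01). The same held for chemokine receptors (12 tested, median 0.14), integrins (13 tested, median -0.12), Toll-like and other pattern receptors (24 tested, median 0.06), glycolysis and hypoxia (21 tested, median -0.15), the respiratory chain (30 tested, median -0.13), p53 targets and CDK inhibitors (22 tested, median 0.02), haem, iron and NRF2 genes (20 tested, median 0.19), heat shock genes (16 tested, median 0.09) and TGF-beta genes (19 tested, median 0.15). Over all genes 0.554% were called, so lists of this size may hold no call at that share. Siglec1, sialoadhesin, came nearest among the interferon-induced genes, with 7.95, 9.11 and 11.1 FPKM in CD45.1 and 10.1, 15.9 and 24.4 FPKM in CD45.2 monocytes (0.73 ± 0.15 SE, adjusted p = 0.0673 in limma). Of the 25 transcription factors tested 1 rose (0.476% of all genes rose), namely Maf, which drives macrophage genes. It had 13.4, 19.4 and 26.1 FPKM against 31.5, 50.2 and 67.0 FPKM (1.27 ± 0.23 SE, adjusted p = 0.0359 in limma), and its call was lost in 9 of the 12 fits that left out 1 library. Of 8 tested genes of haematopoietic progenitors 1 rose, Igfbp4, against 0.476% of all genes. Of 8 tested granule genes of neutrophil-like monocytes 5 had a negative difference, the median was -0.20 and 1 rose, Mmp9, against the same 0.476%. No gene was called among the markers of conventional dendritic cells (11 tested), B and plasma cells (4 tested), NK cells (3 tested), epithelium (7 tested), endothelium (10 tested), fibroblasts and smooth muscle (4 tested), eosinophils (1 tested) or mast cells and basophils (1 tested). Lists this short may likewise hold no call at a share of 0.554%.

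Besides Ctse and Chil1, the 8 genes that fell were predicted non-coding genes or pseudogenes. A pair of small RNA genes was listed at 0 in all 6 CD45.1 libraries and passed. Gm22633, a small nuclear RNA gene, had 701, 390 and 365 FPKM in CD45.2 FA replicates 0, 1 and 2 and 0, 523 and 846 FPKM in CD45.2 PM2.5 replicates 0, 1 and 2. Gm26041, annotated as an rRNA gene on chromosome X, had 5530, 1653 and 0 FPKM in the FA and 880, 6014 and 1825 FPKM in the PM2.5 replicates. Both were high in 5 of the 6 CD45.2 libraries and absent from 1, so the origins touched at 0. For genes this short FPKM is an unstable unit, and no fold is given.

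The origin difference was also tested for a dependence on exposure. In limma 3 of 12822 genes (0.0234%) had a different origin effect in PM2.5 than in FA exposed mice. At an unadjusted p under 0.05 there were 236 (1.84%), a smaller share than the 0.05 expected if no gene differed. All 3 were small RNA genes that were listed at 0 in whole groups. Gm26287 had 1473, 1480 and 2039 FPKM in CD45.1 PM2.5 libraries and 0 in the other 9 libraries. Gm24251 had 217, 433 and 294 FPKM in CD45.1 FA libraries and 0 in the other 9. Gm25492 was listed at 0 only in the 3 CD45.2 PM2.5 libraries and had between 112 and 404 FPKM elsewhere. Within FA alone 9 genes passed for origin, and within PM2.5 alone 23 passed, with 3 against 3 libraries each. Cd163 differed by 3.88 in FA and by 3.26 in PM2.5 exposed mice, and Folr2, Stab1, Ctse and Chil1 likewise kept their direction in both. With 1 exposure alone Cd163 (adjusted p = 0.117 in FA and 0.268 in PM2.5) and Stab1 (adjusted p = 0.48 and 0.263) did not pass in limma, and Folr2 did not pass in FA (adjusted p = 0.182).

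Whether the monocyte difference was shared by AΦ was tested over the 24 libraries of 32-weeks, without a library in common between the 2 differences. The monocytes and AΦ of an exposure appear to come from the same mice, and this fit had no term for mouse. The origin difference of monocytes minus that of AΦ passed in limma for 153 of 13174 genes (1.16%), 131 above 0 (0.994%) and 22 below (0.167%). The smallest p was that of Rn7s1, which differed by -0.20 in monocytes and by 9.59 in AΦ. In AΦ alone 129 genes (0.979%) differed between origins. Of the 71 genes called in monocytes 70 could be tested here. For 53 of the 70 the 2 differences themselves differed, all with the larger difference in monocytes on the log2(FPKM + 1) scale. The added 1 shrinks differences of genes that are low in AΦ, such as Ctse and Ppfia4. A larger difference in monocytes therefore need not be a larger fold. The 70 were selected for their difference in monocytes, which favours that direction. In AΦ 37 of the 70 had the same direction, 5 were called in that direction and 0 in the opposite one. Cd163 differed by 3.57 in monocytes and by 0.55 in AΦ, and the difference between them was 3.02 ± 0.44 (SE, adjusted p = 0.00177 in limma). For Folr2 the difference between them was 2.88 ± 0.43 (SE, adjusted p = 0.0019 in limma) and for Stab1 3.3 ± 0.51 (SE, adjusted p = 0.00214 in limma). Pf4 differed by 2.82 in monocytes and by -1.67 in AΦ, where its adjusted p was 0.161 in limma. Bmpr1a, chosen after its values were seen, differed in both cells, with 1.5 in monocytes and 1.64 in AΦ (adjusted p = 0.00051 in limma for AΦ and 0.947 for the difference between them).

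**Figure D5:**
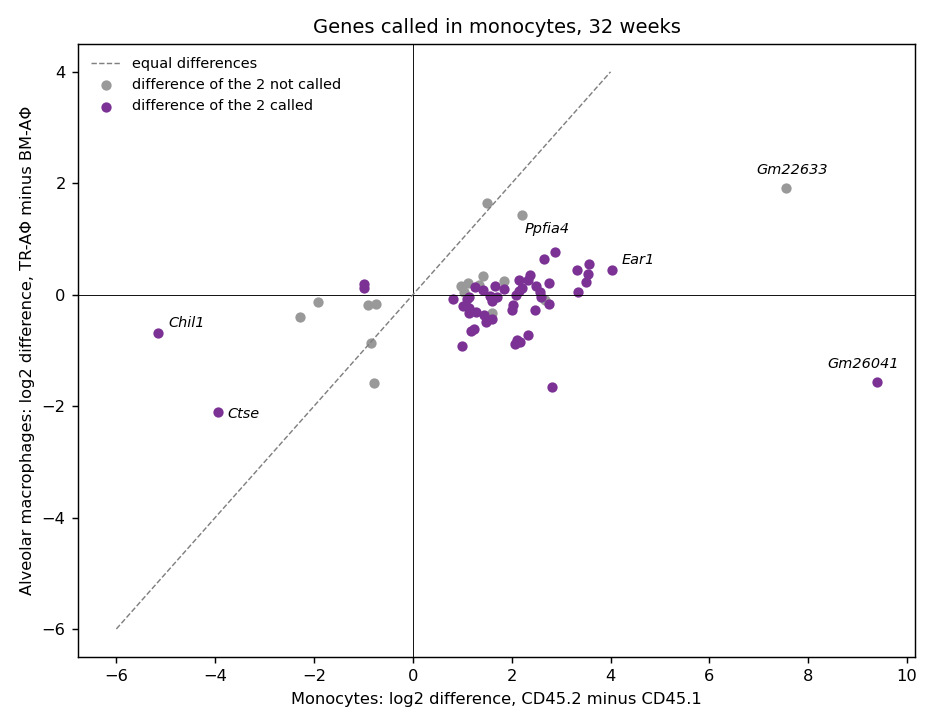
The 70 genes called in monocytes and tested in all 24 libraries of 32-weeks, with the log2 difference CD45.2 minus CD45.1 in monocytes on the x axis and TR-AΦ minus BM-AΦ on the y axis. Purple points are the 53 genes whose 2 differences differed, and the dashed line marks equal differences. Most points lie near 0 on the y axis, and Ctse lies low on both.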

How the data were processed

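RNA of sorted lung monocytes and AΦ was sequenced from amplified cDNA. Per the study's methods and the submitters' processing notes, the authors aligned reads to mm10 with STAR and made the deposited FPKM values with Cufflinks and Cuffdiff. FPKM carries no counts, so depth is unknown and no count model was used. All 36 libraries had a column of their own, and 0 per-sample columns were left unused.

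Origin was tested with limma 3.58.1 in R 4.3.3 on log2(FPKM + 1), with exposure as a covariate, over genes with a mean of 1 FPKM or more. The added 1 makes differences of genes with low FPKM look smaller than they are. Adjusted p is that of Benjamini-Hochberg over all genes tested, with a threshold of 0.05. The fit was tested on simulated data. Single values were given an exact permutation test over the 400 arrangements within exposure. Values in ± are SE. P-values measure the spread between libraries of 3 mice per group.

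Single genes were named by a rule: up to 12 non-overlapping called genes per direction by size, up to 3 per list by p, the gate genes, up to 10 genes within 20 Mb of Ptprc, up to 5 per direction in the interaction tests, and called genes listed at 0 at one origin. The other genes with values, also where the text does not say so (Ildr2, the C1q subunits, Mertk, Msr1, Cd36, Scarb1, Ccl2, C3, Fabp1, Marco, Cd3e, Cd3d and Gp9), were chosen after their values were seen. The members and the 42 gene lists were chosen with earlier results of these data known. Gene positions are those of GENCODE on GRCm38, matched by Ensembl ID for 12779 of the 12822 genes, and promoter sequences are those of RefSeq on GRCm38.p6, which were found for 40 of the 71 called genes. The alternatives were another pseudocount, filter and scaling, FA or PM2.5 alone, all 18 monocyte libraries, a replicate block and each library left out. For named genes the exact permutation test was counted as a further alternative. Single values of a few list members are not reported here.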

Additional observations from a re-analysis of the deposited data

Results flagged for a closer look

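Whether the origin difference depended on exposure or on cell type was tested directly, and both tests called genes. It differed between FA and PM2.5 exposed mice for 3 genes in limma, the small RNA genes Gm26287, Gm24251 and Gm25492, all listed at 0 in whole groups. It differed between monocytes and AΦ of 32-weeks for 153 genes in limma, among them Cd163, Folr2, Stab1, Chil1 and Ctse. The log scale of this test shrinks differences of genes with low FPKM. Chil1 and Ctse were low in AΦ, and Cd163 and Folr2 were low in TR-AΦ. A difference called here therefore need not be a difference in fold. Others of the 153 differed mainly in AΦ. These include Rn7s1 (-0.20 in monocytes, 9.59 in AΦ), Gm26917 (-0.16, 7.41) and Cdk8 (-0.03, 1.86).

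Among 94 groups of 6 libraries examined, 2 had a library far from the others, and chance gives such a gap in about 1 of 20 groups. Gaps were measured on log2(FPKM + 1) for genes. For Csf1r, CD45.1 FA replicate 1 had 126 FPKM, whereas the other 5 lay between 172 and 199.6 FPKM. On the log2 scale this gap was 0.672 of the whole range. For Chp2, CD45.2 FA replicate 2 had 3.1 FPKM, whereas the other 5 lay between 7.09 and 9.53 FPKM. Its gap was 0.721 of the whole range on the log2 scale.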

How the results depend on the processing

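Of 825 values of the 30 named called genes under alternatives, 707 kept their direction and side of the threshold, 118 kept only their direction and 0 reversed. For 14 named genes that were not called, 370 of 390 were alike, 9 passed the threshold and 11 reversed. Origin called 71 genes, against 47 at a mean of 5 FPKM or more, 9 in FA alone, 23 in PM2.5 alone (both with fewer libraries), and 37 to 85 with 1 library left out. Further fits were chosen after seeing the data, among them a fit without the genes within 20 Mb of Ptprc, whose count is not given here. With a term for replicate 2 there were 107 calls, and without the 2 CD45.2 libraries of highest first component 24. Interstitial macrophage markers had 5 calls, against 0 in FA alone, 2 in PM2.5 alone, 3 without that pair and 5 with any 1 library left out. Genes near Ptprc had 7 calls, against 11 in all 18 monocyte libraries, 3 in FA alone, 4 in PM2.5 alone, 4 without that pair and 5 to 7 with 1 library left out. The dependence on exposure had 3 calls, against 5 without a filter, 0 in all 18 libraries and 3 to 9 with 1 library left out. Monocytes minus AΦ had 153 calls, against 113 to 216 with 1 library left out.

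The replicate numbers were not shown to pair the samples: residuals of same-numbered libraries correlated between -0.041 and 0.095, and 4 of 6 correlated best with their own number. With the replicate block there were 266 calls for origin (70 of the 71 shared), 10 interstitial markers, 14 genes near Ptprc and 375 genes for monocytes minus AΦ. C1qa, C1qb and C1qc then passed in limma (adjusted p = 0.00833, 0.0212 and 0.00806), against 0.206, 0.236 and 0.163 without it. On the first component the origins overlapped and differed with an exact permutation p of 0.025, against 0.295 with genes scaled to unit variance and 0.525 over the 500 most variable genes. In these settings another component differed, the third (p = 0.03, exact permutation) and the second (p = 0.005, exact permutation, no overlap) respectively. Some gate genes that were not called reversed: Ly6c2 (0.03) and Itgam (0.09) without that pair, and Fcgr1 under median of ratios scaling (-0.01) and in FA alone (-0.11). With 1 library left out Itgam ranged from -0.24 to 0.02 and Fcgr1 from -0.09 to 0.11. The causes were not tested.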
